A study of Mus musculus with 50 samples.

Results

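The fibrillar collagens I, III and V form the banded fibrils of the heart's interstitium, and the mRNA levels of their 6 genes were described over all 50 left ventricle libraries of the series. The members are the genes Col1a1, Col1a2, Col3a1, Col5a1, Col5a2 and Col5a3, found by symbol among the 35717 genes of the deposited table, and all 6 passed the filter on low values that left 11628 genes to test. The study asked what overexpression of LARP6, an RNA-binding protein, in heart muscle cells does to the heart's response to angiotensin II (Ang II), the vessel-constricting peptide of the renin system. The libraries came from C57BL/6J mice aged 40 weeks that either carried the LARP6 transgene (Tg) or were wild-type littermates (WT), and each mouse had an infusion of Ang II at 1000 ng per kg per minute or of sterile saline for 21 days. There were 13 Tg Ang II libraries (7 female, 6 male), 12 Tg saline libraries (6 female, 6 male), 14 WT Ang II libraries (7 female, 7 male) and 11 WT saline libraries (5 female, 6 male). The series title calls the transgene specific to cardiomyocytes, but its promoter is not described in the sources used here.

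Fibrillar collagen chains wind into triple helices in the endoplasmic reticulum, are secreted as procollagens, are trimmed at both ends and then assemble into fibrils that lysyl oxidases crosslink. In the heart, fibroblasts and the myofibroblasts derived from them are the main source of these chains, and type V collagen is a minor component that starts fibrils and limits their width. LARP6 is known for binding a stem-loop at the start codon of the type I and type III collagen mRNAs, the products of Col1a1, Col1a2 and Col3a1, and no such binding is taken as known here for the type V mRNAs.

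The bases around each start codon are shown because LARP6 is reported to bind this place and because the 6 mRNAs differ there. Each line gives 30 bases on the gene's own strand, 5′ to 3′, with the last 24 bases before the start codon followed by the start codon and 3 more bases; they were read from the GRCm38 genome at the start codons of the GENCODE M21 annotation. Capitals mark the arms of an inverted repeat, CATGTCT and AGACATG, whose right arm ends in the start codon.
Col1a1, chr11:94936345-94936374, plus strand: agtctaCATGTCTagggtctAGACATGttc
Col1a2, chr6:4505816-4505845, plus strand: agtctgCATGTCTaagtggtAGACATGctc
Col3a1, chr1:45311724-45311753, plus strand: gagtctCATGTCTgatatttAGACATGatg
Col5a2, chr1:45502909-45502938, minus strand: gacccaCATGTCTcatatttAGACATGatg
Col5a1, chr2:27886792-27886821, plus strand: ccccggcccgcgcaccccgccggcatggac
Col5a3, chr9:20814948-20814977, minus strand: cttggtgcaccaggccccgctgggatgaga

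Both arms, 7 bases each with 7 bases between them, stood in Col1a1, Col1a2, Col3a1 and Col5a2, and in no other gene searched. The search covered coding transcripts with a start codon and at least 24 bases before it, which came from 20262 genes. Of these genes 4, or 0.0197%, held the pair at the start codon of at least 1 transcript. The right arm alone stood at the start codon of 277 genes, or 1.37%. The windows of Col3a1 and Col5a2 shared 26 of 30 bases and those of Col1a1 and Col1a2 shared 24 of 30, while the other pairs shared 5 to 19. Only exact copies of the arms were searched for, on the coding strand, so the lines of Col5a1 and Col5a3 say only that these letters are not in these windows. The match is a description of sequence and was not tested as a binding site.

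The genes lie on 5 chromosomes. Col1a1 spans chr11:94936224-94953042, Col1a2 spans chr6:4504814-4541544, Col5a1 spans chr2:27886425-28039514 and Col5a3 spans chr9:20770050-20815067, in GRCm38 coordinates of the deposited table. Col3a1, at chr1:45311538-45349706 on the plus strand, and Col5a2, at chr1:45374321-45503282 on the minus strand, run towards each other and their ends are 24614 bases apart. Both hold the repeat at their start codons. The proteins encoded have 1453 codons for Col1a1, 1372 for Col1a2, 1464 for Col3a1, 1838 for Col5a1, 1497 for Col5a2 and 1739 for Col5a3, from the start codon to the last codon of the longest coding transcript.

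Levels are given as scaled FPKM, the deposited FPKM (fragments per unit of gene length and of library size) over a factor for each library from the median of ratios, which puts a typical gene at the same level everywhere. Total counts per library lay between 53877439 and 91579342, and the members had between 571 counts (Col5a3, its lowest library) and 47461 counts (Col3a1, its highest), so counting error alone gave a coefficient of variation of at most 4.18% in any library. The check of the labels is Larp6 itself, whose counts mix transgene and mouse gene. Larp6 had a median of 946 scaled FPKM in Tg Ang II libraries (587 to 1177) and 976 in Tg saline libraries (443 to 1627), against 37.7 in WT Ang II libraries (19.6 to 1001) and 32.1 in WT saline libraries (5.59 to 63.5). The library labelled WT Ang II number 329, a male, held the 1001 and so stood at the Tg level against its label, and its column in the table bears Tg letters; without it the highest WT Ang II library was at 62.8. The library labelled Tg Ang II number 847, also a male, bears WT letters in the table but had 1117 scaled FPKM of Larp6, at the Tg level. Both were kept under their labels, and results that change without them are given with that value. Markers that define ventricular muscle summed to between 11784 and 16873 scaled FPKM, while 3 atrial markers were each under 1 in every library.

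The type I chains come first. Col1a1 encodes the alpha-1 chain of type I collagen, the most abundant fibrillar collagen of the heart. Its lowest, median and highest levels were 13.9, 19.8 and 35.3 scaled FPKM in Tg Ang II libraries and 10.5, 13.3 and 23.3 in Tg saline libraries. They were 7.37, 13.8 and 28.0 in WT Ang II libraries and 5.20, 6.81 and 9.55 in WT saline libraries. All 12 Tg saline libraries and all 13 Tg Ang II libraries stood above every WT saline library, as did 10 of 14 WT Ang II libraries, whereas 1 of 13 Tg Ang II libraries stood above the highest WT Ang II library. The lowest level in Tg saline libraries was thus above the highest in WT saline libraries, and the groups overlapped in the other 3 contrasts of genotype or infusion. In saline, 20.4% of the 11628 genes were called higher in Tg. The share of all genes whose groups lie fully apart is not given here, for this member or the others. The log2 fold change from edgeR's quasi-likelihood test, with p adjusted by Benjamini-Hochberg over the 11628 genes, was 0.88 ± 0.18 (SE) for Tg over WT in saline (adjusted p = 0.000126). Under Ang II the same contrast gave 0.51 ± 0.17 (adjusted p = 0.0144), and this call was lost without library 715, a Tg Ang II male, with 0.41 and an adjusted p of 0.0500217. Ang II over saline gave 0.56 ± 0.17 in Tg (adjusted p = 0.0316) and 0.94 ± 0.18 in WT (adjusted p = 0.000181). The call in Tg was lost without each of libraries 237, 299, 528, 715 and 716 (adjusted p from 0.0501 to 0.0917), with library size alone as scaling (adjusted p = 0.0511) and with no filter on low genes (adjusted p = 0.0652).

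Col1a2 encodes the alpha-2 chain, which joins alpha-1 chains in the type I heterotrimer. Levels at the lowest, median and highest library were 7.60, 11.7 and 20.1 scaled FPKM in Tg Ang II and 6.99, 8.27 and 15.0 in Tg saline. In WT mice they were 4.74, 7.69 and 15.9 under Ang II and 4.18, 5.09 and 6.28 in saline. As with Col1a1, all 12 Tg saline and all 13 Tg Ang II libraries were above every WT saline library, and 11 of 14 WT Ang II libraries were. The libraries of WT saline lay closer together than those of the other groups, with a coefficient of variation of 11.6%. Col1a2 was higher in Tg than in WT by 0.82 ± 0.15 in saline (log2, adjusted p = 2.45e-05) and by 0.50 ± 0.14 under Ang II (adjusted p = 0.00378). Ang II over saline gave 0.72 ± 0.15 in WT (adjusted p = 0.000457), and 0.40 ± 0.14 in Tg, which missed the threshold (adjusted p = 0.0703, 95% interval 0.11 to 0.69). The value in Tg passed when only the groups compared were fitted (0.40, adjusted p = 0.0448) and without each of libraries 162, 297, 530 and 779 (adjusted p from 0.0252 to 0.0460).

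Col3a1 encodes the single chain of type III collagen, whose homotrimers co-assemble with type I in compliant fibrils. The levels spread more widely than those of type I, with 14.6, 25.4 and 51.6 scaled FPKM at the lowest, median and highest library of Tg Ang II and 10.1, 15.7 and 41.3 in Tg saline. The corresponding levels were 7.37, 17.4 and 34.1 in WT Ang II and 5.27, 7.60 and 14.6 in WT saline. Of the Tg saline libraries, 7 of 12 were above every WT saline library. Of the Tg Ang II libraries 12 of 13 were. Library 162, a Tg saline female, held the 41.3, and the next highest library of that group was at 19.1. Tg over WT gave a log2 fold change of 0.92 ± 0.25 in saline (adjusted p = 0.00242; 0.73 without library 162) and 0.62 ± 0.22 under Ang II (adjusted p = 0.0285). The call under Ang II was lost without library 715, with 0.49 and an adjusted p of 0.0917, and without each of libraries 154, 328, 720, 721 and 778, with adjusted p between 0.0505 and 0.0526; with no filter on low genes it was 0.0591. Ang II over saline gave 0.90 ± 0.24 in WT (adjusted p = 0.00604) and 0.60 ± 0.23 in Tg (adjusted p = 0.0995), and the value in Tg passed without library 162 (0.78, adjusted p = 0.0224) and with a block for runs of library numbers (0.82, adjusted p = 0.0457).

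**Figure D1:**
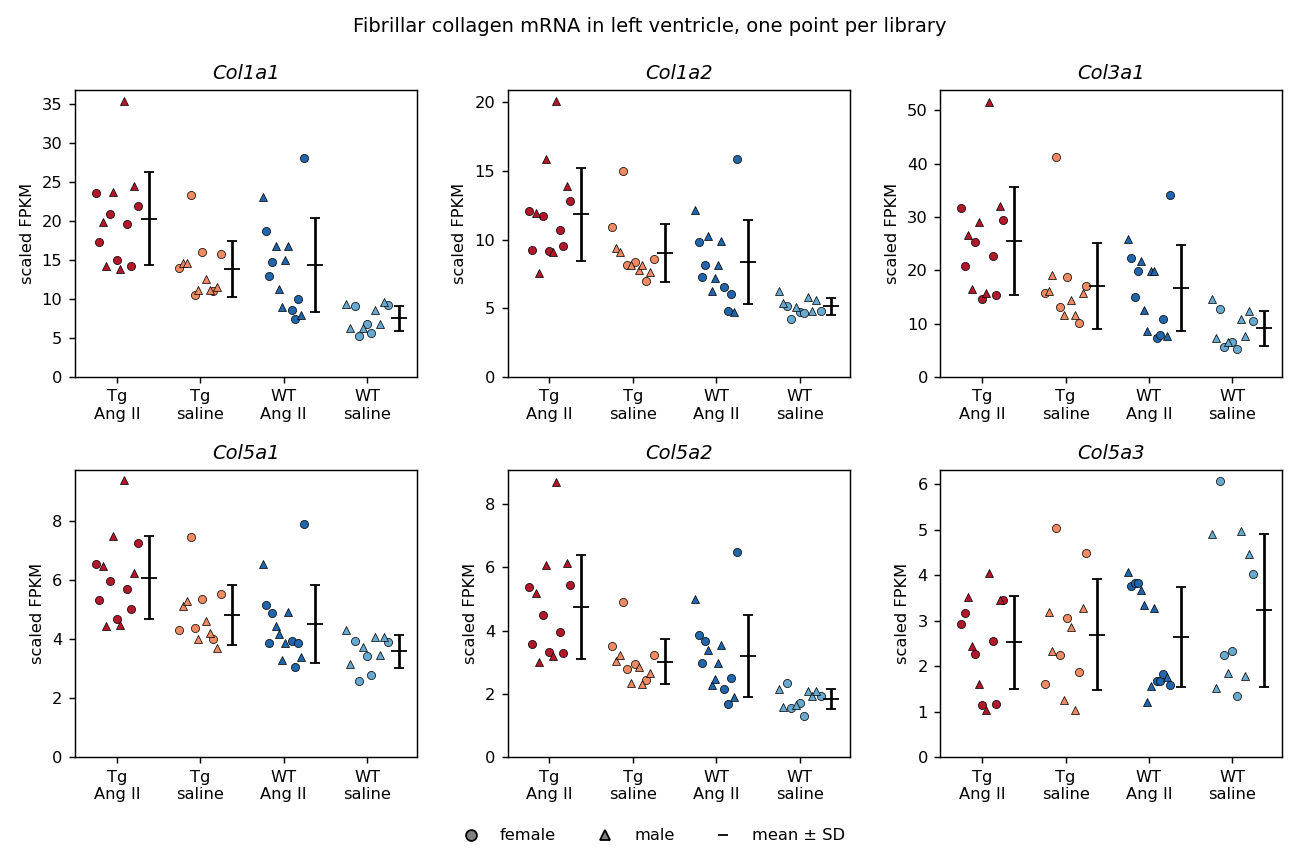
Scaled FPKM of each member (vertical axes, 1 panel per gene) in every library of the 4 groups, with circles for females, triangles for males and bars for mean ± SD. For Col1a1 and Col1a2 all Tg saline libraries lie above all WT saline libraries, whereas the 4 groups of Col5a3 overlap, with highest levels of 4.04 in Tg Ang II, 5.04 in Tg saline, 4.07 in WT Ang II and 6.06 in WT saline. The share of all genes whose groups lie fully apart is not given.

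Among the type V chains, Col5a1 encodes the alpha-1 chain found in every common form of type V collagen. Its levels were 4.45, 5.96 and 9.39 scaled FPKM at the lowest, median and highest library in Tg Ang II and 3.71, 4.49 and 7.45 in Tg saline, against 3.04, 4.05 and 7.89 in WT Ang II and 2.58, 3.73 and 4.32 in WT saline. All 13 Tg Ang II libraries were above every WT saline library, but 7 of 12 Tg saline and 6 of 14 WT Ang II libraries were. Col5a1 rose in Tg over WT by 0.44 ± 0.13 in saline (log2, adjusted p = 0.00614) and by 0.43 ± 0.12 under Ang II (adjusted p = 0.00401). Ang II over saline gave 0.34 ± 0.13 in WT at an adjusted p of 0.0485, and this call was lost in 28 of the 50 fits that left out 1 library, with adjusted p from 0.0235 to 0.126 over the 50. It was also lost without the libraries 329 and 847 (0.36, adjusted p = 0.0552), and under 7 other settings of filter, test or model, with adjusted p from 0.0556 to 0.0843. In Tg the same contrast gave 0.34 ± 0.12 (adjusted p = 0.0768), and passed without each of libraries 162, 297, 530 and 779 (adjusted p from 0.0304 to 0.0463).

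Col5a2 encodes the alpha-2 chain, the partner of the Col5a1 product in the main type V heterotrimer. The lowest, median and highest levels were 3.00, 4.48 and 8.71 scaled FPKM in Tg Ang II and 2.31, 2.89 and 4.90 in Tg saline. WT Ang II libraries had 1.69, 2.97 and 6.50, and WT saline libraries had 1.31, 1.93 and 2.35. All 13 Tg Ang II, 10 of 12 Tg saline and 10 of 14 WT Ang II libraries were above every WT saline library, and 6 of 13 Tg Ang II libraries were above every Tg saline library. Col5a2 passed the test in all 4 contrasts. Tg over WT gave 0.71 ± 0.17 in saline (log2, adjusted p = 0.000986) and 0.57 ± 0.16 under Ang II (adjusted p = 0.00386). Ang II over saline gave 0.66 ± 0.16 in Tg (adjusted p = 0.00753) and 0.80 ± 0.17 in WT (adjusted p = 0.000676). Each of these calls was kept in all 50 fits that left out 1 library. Each was lost in 1 sex alone, where samples are fewer (edgeR). In males this held for Tg over WT in saline (0.51, adjusted p = 0.0985) and Ang II in WT (0.69, adjusted p = 0.0559). In females it held for Tg over WT under Ang II (0.34, adjusted p = 0.311) and Ang II in Tg (0.35, adjusted p = 0.685).

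Col5a3 encodes the alpha-3 chain, which occurs in a rarer type V trimer. Its levels were 1.04, 2.54 and 4.04 scaled FPKM at the lowest, median and highest library in Tg Ang II, 1.04, 2.60 and 5.04 in Tg saline, 1.22, 2.56 and 4.07 in WT Ang II and 1.34, 2.33 and 6.06 in WT saline. The 4 groups overlapped throughout, and no library of Tg saline, Tg Ang II or WT Ang II was above the highest WT saline library. Col5a3 passed the test in none of the contrasts. Tg over WT gave −0.28 ± 0.28 in saline (log2, adjusted p = 0.453, 95% interval −0.84 to 0.28) and −0.07 ± 0.26 under Ang II (adjusted p = 0.878, −0.58 to 0.45). Ang II over saline gave −0.07 ± 0.27 in Tg (adjusted p = 0.912) and −0.28 ± 0.27 in WT (adjusted p = 0.493). The intervals in both Tg over WT contrasts leave out changes as large as the 0.88 measured for Col1a1 in saline.

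**Figure D2:**
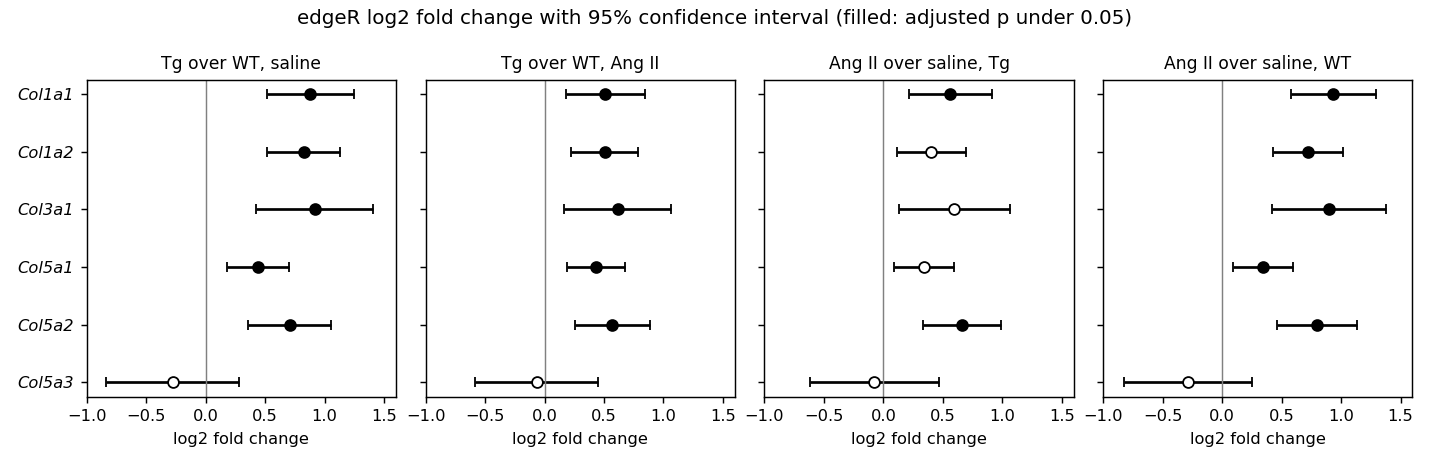
Log2 fold changes of the 6 members (horizontal axis) with 95% confidence intervals in the 4 contrasts, filled where the adjusted p was under 0.05. The estimates for 5 members lie right of 0 in every contrast, with Col1a1 at 0.88 in saline and 0.51 under Ang II for Tg over WT, and Col5a3 lies left of 0.

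Read over the 6 members, 5 rose in Tg over WT in saline, where 20.4% of the 11628 genes were called higher and 20.2% lower. Under Ang II 5 also rose in Tg over WT, where 16.4% of genes were called higher and 16.4% lower. Ang II raised 5 in WT, where 9.71% of genes were called higher and 8.87% lower, and 2 in Tg, where 4.88% were called higher and 4.04% lower. No member fell. With library size alone as scaling, the genes called were 4868 higher and 919 lower for Tg over WT in saline, 3372 and 927 for Tg over WT under Ang II and 1987 and 477 for Ang II in WT. The members that rose numbered 5 in each of these contrasts. The median log2 fold change of the members was 0.77 for Tg over WT in saline, 0.51 for Tg over WT under Ang II, 0.48 for Ang II over saline in Tg and 0.76 for Ang II over saline in WT, against medians of all genes tested between −0.0082 and 0.00044. Contrasts that share a group share its libraries, so these columns are not independent of each other. At an unadjusted p under 0.05 by edgeR, 5 members passed in each of the 4 contrasts. Of the 11628 genes, 5631 did so for Tg over WT in saline and 4886 for Tg over WT under Ang II. For Ang II over saline, 2716 did so in Tg and 3781 in WT.

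Whether Ang II acted differently in the genotypes was tested as an interaction. No member passed, by edgeR, DESeq2 or limma-trend, and none had an unadjusted p under 0.05 by edgeR; over all genes 5 were called (0.043%), 40 by DESeq2, and 1136 had an unadjusted p under 0.05. The Ang II effect in Tg minus that in WT was −0.37 ± 0.24 for Col1a1 (log2, 95% interval −0.86 to 0.12), −0.32 ± 0.20 for Col1a2 (−0.73 to 0.092) and −0.30 ± 0.33 for Col3a1 (−0.96 to 0.36). For the type V chains the estimates were −0.0048 ± 0.18 for Col5a1 (−0.36 to 0.35), −0.14 ± 0.23 for Col5a2 (−0.60 to 0.33) and 0.21 ± 0.38 for Col5a3 (−0.55 to 0.97). Every interval holds 0 and also differences of 0.33 or more in size, so a difference between the genotypes was not detectable here for any of the 6. In males alone, a fit with fewer samples, 4 of these estimates were above 0, at 0.034 for Col1a2, 0.21 for Col3a1, 0.31 for Col5a1 and 0.29 for Col5a2. In females alone that of Col5a3 was below 0, at −0.054. None of these passed. That 2 members passed in Tg and 5 in WT is not itself a difference between the genotypes.

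No member passed between the middle groups. Tg saline over WT Ang II, which sets the transgene alone beside the infusion alone, gave log2 fold changes from −0.092 for Col5a2 to 0.10 for Col1a2, and 0 of 6 members passed by edgeR, DESeq2 or limma-trend, with 0 at an unadjusted p under 0.05 by edgeR, while 31% of all genes were called in this contrast. The widest of the 95% intervals, that of Col5a3, ran from −0.52 to 0.54, and the narrowest, that of Col5a1, from −0.15 to 0.34. For the 5 other members the order of group means was thus Tg Ang II, then Tg saline and WT Ang II, whose difference did not pass, then WT saline. For Col1a1 these means were 20.3 ± 5.93 in Tg Ang II, 13.8 ± 3.57 in Tg saline, 14.3 ± 6.05 in WT Ang II and 7.52 ± 1.64 scaled FPKM in WT saline (SD, n = 13, 12, 14 and 11). For Col1a2 they were 11.8 ± 3.37 in Tg Ang II, 9.01 ± 2.13 in Tg saline, 8.37 ± 3.05 in WT Ang II and 5.13 ± 0.596 in WT saline.

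No member passed the test between female and male hearts. Female over male gave between −0.076 for Col1a2 and 0.037 for Col5a3 on the log2 scale, 0 of 6 members were called by edgeR, DESeq2 or limma-trend, 0 had an unadjusted p under 0.05 by edgeR, and 4.42% of all genes were called. The 95% interval was −0.26 to 0.23 for Col1a1 and −0.35 to 0.42 for Col5a3. Fitted in females alone, with fewer samples, 5 members passed for Tg over WT in saline (26.7% of all genes called either way) and 0 for Tg over WT under Ang II (18.8%). In the same fit 0 passed for Ang II over saline in Tg (0.0516%) and 3 for Ang II over saline in WT (5.72%). In males alone 2 passed for Tg over WT in saline (18.6% of all genes) and 4 for Tg over WT under Ang II (17.3%). There, 2 passed for Ang II over saline in Tg (4.44%) and 1 for Ang II over saline in WT (5.07%).

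The chains are made in different amounts, and the balance between them was measured next. The authors' FPKM divides by the length of all exons of a gene joined together, which held within 2% for 98.6% of 11037 genes, and this length is longer than the mRNA by a factor of 2.32 for Col1a2, 1.76 for Col3a1 and 1.45 for Col5a2, against 1.02 for Col5a1. Levels of different chains were therefore also set per length of the longest coding mRNA. On that scale Col3a1 made up 37.1% ± 4.38 of the 6 chains (SD, n = 50), Col1a2 26.2% ± 3.34, Col1a1 19.8% ± 1.40, Col5a1 6.58% ± 1.23, Col5a2 5.98% ± 0.537 and Col5a3 4.32% ± 2.28. By the deposited FPKM the order of the type I chains was turned round, with Col1a1 at 27.7% ± 2.01 and Col1a2 at 17.5% ± 2.35, so the order of these 2 chains depends on the length used. Differences between groups in the ratio of 2 single chains do not depend on it.

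The ratio of Col5a1 to Col5a2 compares the partners of the main type V heterotrimer, of which Col5a2 has the repeat at its start codon and Col5a1 does not. Per mRNA length it was 0.931 ± 0.111 in Tg Ang II libraries (0.713 to 1.07), 1.13 ± 0.120 in Tg saline (0.859 to 1.28), 1.04 ± 0.165 in WT Ang II (0.854 to 1.29) and 1.37 ± 0.127 in WT saline (1.17 to 1.59; SD, n = 13, 12, 14 and 11). No Tg saline library and no WT Ang II library reached the median of WT saline, and no Tg Ang II library reached that of Tg saline, though the ranges overlapped except between Tg Ang II and WT saline. The log2 ratio fell by 0.27 in Tg against WT in saline (adjusted p = 0.0018), by 0.29 in Tg under Ang II against saline (adjusted p = 0.0032) and by 0.41 in WT under Ang II against saline (adjusted p = 0.0014). These p come from two-sided permutation within sex with 100000 resamples, adjusted over all 36 tests of 6 ratios, 6 of which passed, with 13 at an unadjusted p under 0.05. Tg against WT under Ang II gave −0.16 (adjusted p = 0.155) and the interaction 0.12 (adjusted p = 0.436, permutation), neither of which passed.

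The summed type V chains over the summed type I chains gave the other change in balance. Per mRNA length this ratio was 0.318 ± 0.0275 in Tg Ang II libraries (0.284 to 0.362), 0.339 ± 0.0409 in Tg saline (0.275 to 0.410), 0.356 ± 0.0470 in WT Ang II (0.281 to 0.416) and 0.484 ± 0.0805 in WT saline (0.366 to 0.644). Every Tg Ang II library was thus below every WT saline library. From the deposited FPKM, the log2 ratio fell by 0.54 in Tg against WT in saline and by 0.51 in WT under Ang II against saline (adjusted p = 0.00018 for both, permutation), and both had the smallest raw p these resamples can give, 1e-05. In Tg the Ang II effect on the ratio was −0.14 (adjusted p = 0.0789, permutation), and Tg against WT under Ang II gave −0.18 (adjusted p = 0.0662, permutation), which passed without libraries 329 and 847 (−0.20, adjusted p = 0.0309, permutation). The Ang II effect in Tg minus that in WT was 0.37 and passed (adjusted p = 0.0036, permutation), unlike the interaction of any single member. With the chains per mRNA length it was 0.35 (adjusted p = 0.0089, permutation), with type V from Col5a1 and Col5a2 alone it was 0.27 (adjusted p = 0.00096, permutation), in males alone 0.42 (adjusted p = 0.0343, permutation) and in females alone 0.31 (adjusted p = 0.209, permutation).

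**Figure D3:**
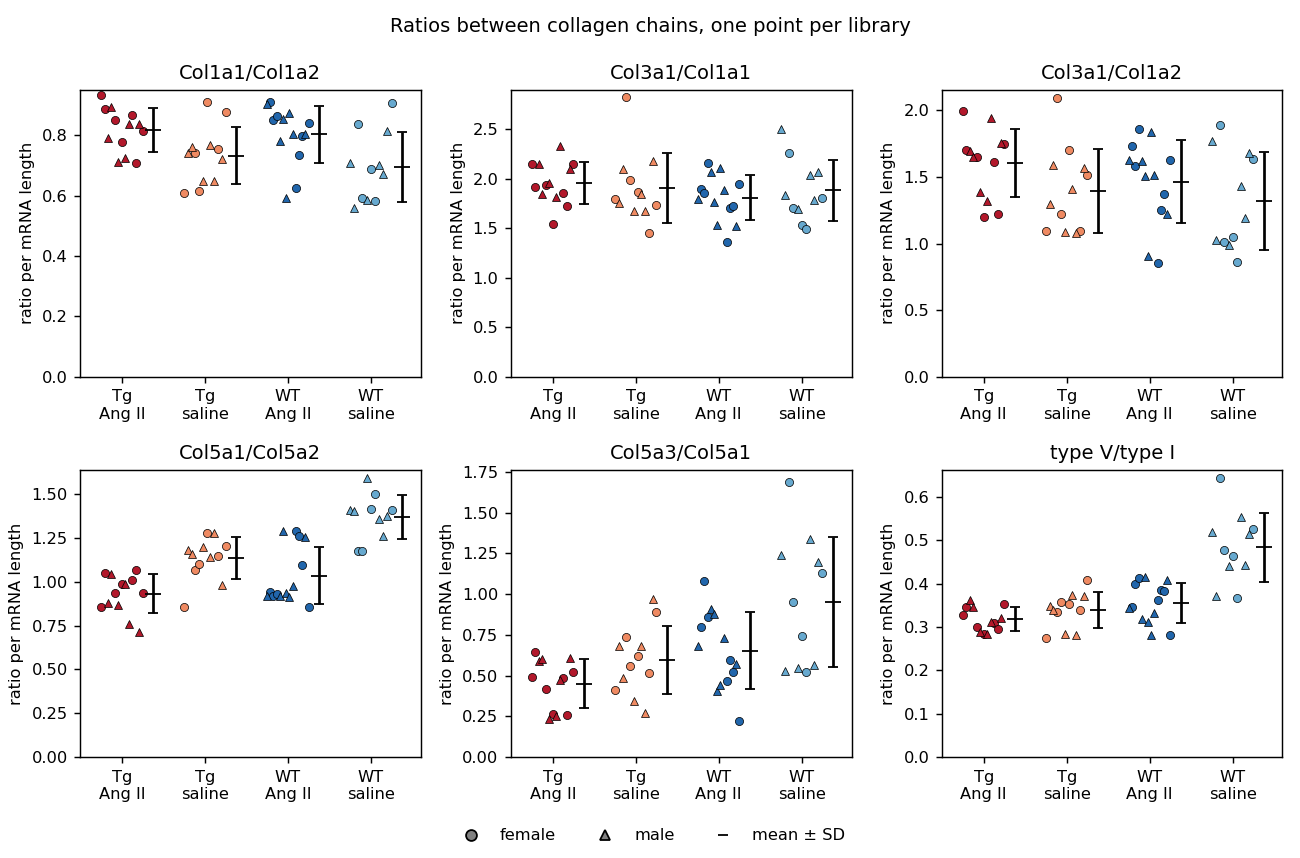
Chain ratios per mRNA length (vertical axes, 1 panel per ratio) in every library of the 4 groups, circles for females and triangles for males, with mean ± SD. Type V over type I averages 0.484 in WT saline and between 0.318 and 0.356 in the other 3 groups, and Col5a1 over Col5a2 has its highest mean, 1.37, in WT saline.

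The ratios within type I and between types I and III passed in no contrast. Col1a1 over Col1a2 per mRNA length was 0.818 ± 0.0721 in Tg Ang II, 0.733 ± 0.0939 in Tg saline, 0.803 ± 0.0950 in WT Ang II and 0.695 ± 0.116 in WT saline. The differences ran from 0.03 for Tg over WT under Ang II to 0.21 for Ang II over saline in WT on the log2 scale, and the smallest adjusted p among the group contrasts was 0.0662 (permutation). Col3a1 over Col1a1 was 1.96 ± 0.210 in Tg Ang II, 1.91 ± 0.349 in Tg saline, 1.81 ± 0.230 in WT Ang II and 1.88 ± 0.307 in WT saline, with log2 differences between −0.043 and 0.12 and none passing. Col3a1 over Col1a2 had differences from 0.10 to 0.22, none passing. Col5a3 over Col5a1 was 0.449 ± 0.151 in Tg Ang II, 0.597 ± 0.210 in Tg saline, 0.653 ± 0.236 in WT Ang II and 0.950 ± 0.398 in WT saline, and the difference of −0.65 for Tg over WT in saline had an adjusted p of 0.0662 (permutation).

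Libraries of 1 group differed widely in collagen level, and relations between the members were measured across them. Library 715 (Tg Ang II male) had the highest level of its group for all 6 members, and library 162 (Tg saline female) stood high in its group. Library 779 (WT Ang II female) stood high for the 5 members other than Col5a3. Its Col5a3 level was 1.59 scaled FPKM, where WT Ang II libraries ran from 1.22 to 4.07. Over the 10 pairs of these 5 members and the 4 groups, Pearson's r of log2 levels was between 0.62 and 0.99 with a median of 0.92, and all 40 relations passed by permutation of libraries, adjusted over all 60 relations computed, with a largest adjusted p of 0.049. Spearman's rho of the same relations was 0.69 to 0.98. Without the 2 libraries farthest from the median, r was 0.52 to 0.98. The lowest r was that of Col1a2 with Col5a2 in WT saline, and the highest that of Col1a1 with Col3a1 in Tg Ang II.

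The relations of Col5a3 were measured in the Tg groups. In these 2 groups its r with each of the 5 was 0.38 to 0.76, 8 of 10 relations passed by Pearson's r and 9 by Spearman's rho (permutation), and without the 2 farthest libraries r was 0.24 to 0.71. In WT its libraries fell into separate sets, 7 at or under 1.83 and 7 at or over 3.28 scaled FPKM in WT Ang II, and 6 at or under 2.33 and 5 at or over 4.03 in WT saline, so no r is given there. The level stepped up 1.79-fold and 1.73-fold across these gaps, against at most 1.40-fold across the widest gap of any other member and group that had at least 4 libraries on each side, among them Col1a1 and Col3a1 in WT saline and Col5a3 in Tg Ang II. In WT saline the same 5 libraries, 157, 239, 774, 846 and 968, lay above the gap for Col5a3, Col1a1 and Col3a1. The r of Col1a1 with Col3a1 in WT saline, 0.96, runs across that split, and what the split adds to it was not tested. The difference in r between Col5a3 and the other members was not tested.

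**Figure D4:**
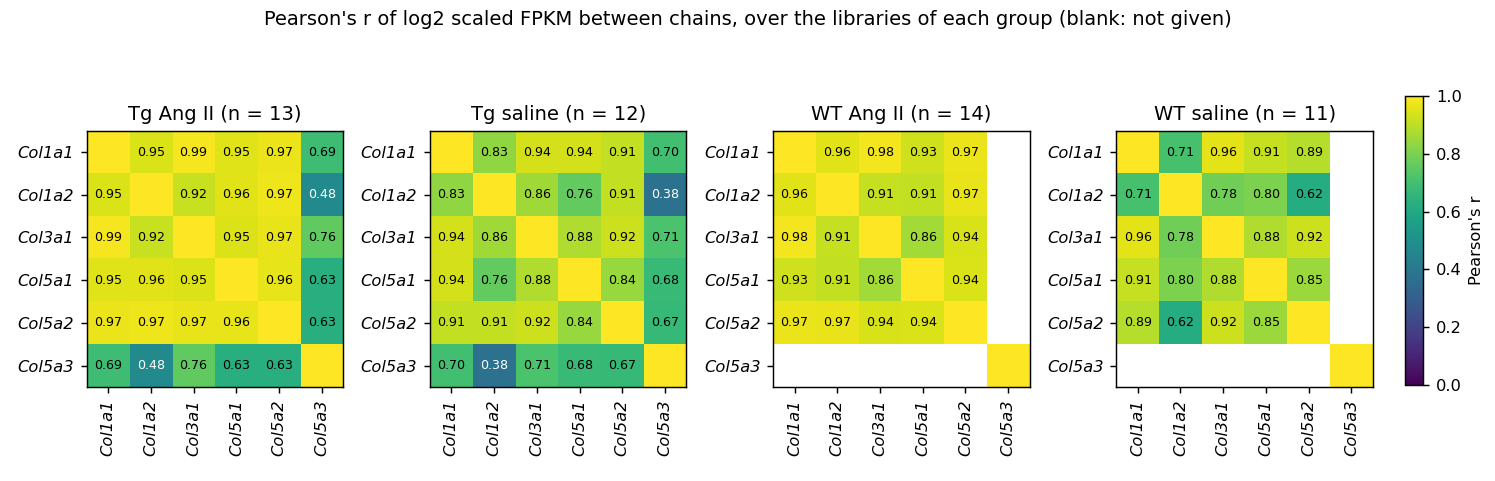
Pearson's r of log2 levels between members across the libraries of each group (colour scale up to 1 and without negative values, n = 13, 12, 14 and 11 libraries). Relations of the 5 members other than Col5a3 range from 0.62 to 0.99; cells of Col5a3 are blank in the WT groups, where its libraries form separate sets.

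No relation between the amount of Larp6 in a Tg heart and its collagens passed. Larp6 was set against each of the 6 members and the ratio of Col1a1 to Col1a2 in Tg Ang II and in Tg saline, 14 relations, with r from −0.11 to 0.28. By permutation 0 of 14 passed for Pearson's r or Spearman's rho, with a smallest adjusted p of 0.990 and 0 at an unadjusted p under 0.05. Without the 2 libraries farthest from the median, r ran from −0.51 to 0.48 and changed sign in 7 of the 14.

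By the likeness of log2 levels over the 50 libraries, after the mean of each genotype, treatment and sex was taken off, the 3 genes most like each member were taken from all 11628. Col1a1 was most like Loxl1 (r = 0.93), Col6a1 (0.92) and Col6a2 (0.91), and Col3a1 was most like Loxl1 (0.95), Fbn1 (0.94) and Col6a1 (0.90). Loxl1 is a lysyl oxidase homologue, Fbn1 encodes the microfibril protein fibrillin, and Col6a1 and Col6a2 encode chains of beaded-filament collagen VI. Col1a2 was most like Fstl1 (0.91), Serpinf1 (0.91) and Postn (0.90), Col5a1 like Col6a1 (0.93), Col6a2 (0.92) and Loxl2 (0.92), and Col5a2 like Col6a1 (0.91), Fstl1 (0.90) and Col6a2 (0.90). Col5a3 had other neighbours, namely Slc41a3 (0.87), Rhoj (0.87) and Mmp14 (0.85), the last of which encodes a membrane-bound collagenase. These 3 values span all 50 libraries, among them the WT libraries in which Col5a3 fell into separate sets. What that split adds to them was not tested.

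Col5a3 also followed clock genes, a set of 18 that was chosen after values had been seen and is therefore given without a test. Over the 25 Tg libraries, after group and sex means were taken off, Col5a3 had an r beyond 0.7 in size with 8 of the 18, 3 positive and 5 negative, with extremes of −0.85 and 0.87. The other members had such an r with 0 of the 18, except Col3a1 with 1, though some came near 0.7. Their extremes were −0.63 and 0.66 for Col1a1, −0.53 and 0.48 for Col1a2, and −0.76 and 0.69 for Col3a1. For Col5a1 they were −0.57 and 0.695, and for Col5a2 −0.67 and 0.64. Within single Tg groups, an r beyond 0.7 in size was not particular to Col5a3. In Tg Ang II, r with the clock gene Cry2 was −0.85 for Col3a1, −0.80 for Col1a1 and −0.82 for Col5a3. It was −0.76 for Col5a2, −0.75 for Col5a1 and −0.66 for Col1a2. In Tg saline these 6 were −0.49, −0.38, −0.66, −0.44, −0.29 and −0.31. In Tg Ang II Col3a1 also had Arntl 0.71, Clock 0.74, Per1 −0.83, Per3 −0.71, Tef −0.77 and Bhlhe40 0.76. There Col1a1 had Per1 −0.78 and Bhlhe40 0.71, and Col5a2 had Per1 −0.73. For Arntl, an activator of the circadian loop that peaks opposite to the Period genes, r with Col5a3 was 0.96 in Tg Ang II and 0.78 in Tg saline, and without the 2 farthest libraries 0.93 and 0.54. For Per2, a repressor of the loop, r with Col5a3 was −0.90 in Tg Ang II and −0.58 in Tg saline. With the clock gene Tef in Tg saline, r was −0.79 for Col3a1, −0.79 for Col5a2 and −0.76 for Col5a3. It was under 0.7 in size there for the other members. Arntl and Per2 together took up 76.3% of the variance of Col5a3 within groups and sexes over the Tg libraries. The share was 40.6% for Col3a1, 32.3% for Col5a2, 28.2% for Col1a1, 18.5% for Col5a1 and 14.2% for Col1a2. The sources used here give no hour of tissue collection. With Arntl and Per2 as covariates over all libraries, an alternative added after seeing the data, Col5a3 still passed in no contrast (−0.17 for Tg over WT in saline, adjusted p = 0.428), and the calls of the 4 contrasts were 5 and 5 for Tg over WT in saline and under Ang II, and 3 and 5 for Ang II in Tg and in WT.

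**Figure D5:**
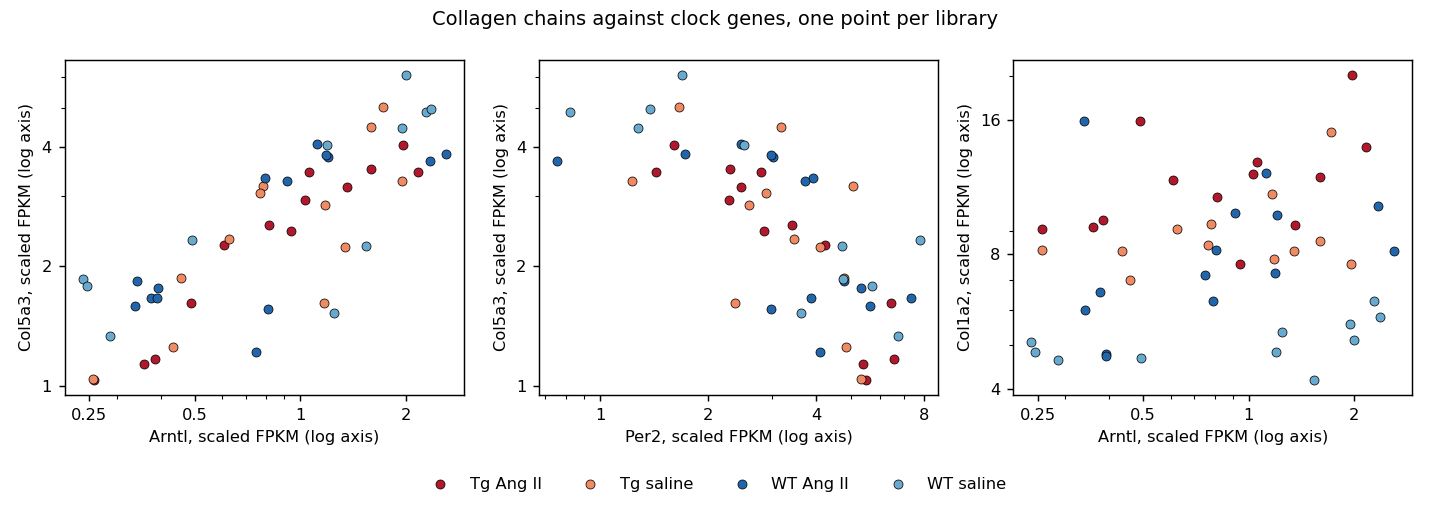
Scaled FPKM of Col5a3 against Arntl and against Per2, and of Col1a2 against Arntl, with 1 point for each library, coloured by the 4 groups (both axes on log scales). In the Tg libraries Col5a3 goes up with Arntl (r = 0.87 after group and sex means) and down with Per2 (r = −0.75), and Col1a2 has an r of 0.37 with Arntl. For the members not shown, r with Arntl is 0.52 for Col1a1, 0.61 for Col3a1, 0.42 for Col5a1 and 0.57 for Col5a2.

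Genes that act on these collagens were counted in lists. The shares of all genes called higher and lower, beside which these counts are read, were 20.4% and 20.2% for Tg over WT in saline, 16.4% and 16.4% under Ang II, 4.88% and 4.04% for Ang II in Tg and 9.71% and 8.87% for Ang II in WT. The lysyl oxidases and transglutaminase that crosslink fibrils all rose in Tg over WT in saline, 5 of 5 tested with a median log2 fold change of 0.80, with Loxl1 at 0.93 ± 0.15 (adjusted p = 2.38e-06) and Tgm2 at 0.80 ± 0.10 (adjusted p = 3.64e-08). Under Ang II 3 of 5 rose in Tg over WT (median 0.56). Ang II raised 2 of 5 in Tg (median 0.24) and 4 of 5 in WT (median 0.52), with Lox itself at 0.91 ± 0.26 in Tg (adjusted p = 0.0184) and 1.24 ± 0.27 in WT (adjusted p = 0.000854). The fibril-associated and beaded-filament collagens rose in 5 of 5 tested for Tg over WT in saline (median 0.54; Col14a1 1.08 ± 0.17, adjusted p = 2.61e-06), in 4 of 5 under Ang II (0.49), and in 1 and 2 of 5 for Ang II in Tg and in WT (0.28 and 0.30). Of 7 basement membrane and network collagens, 3 and 4 rose in Tg over WT in saline and under Ang II (0.35 and 0.39) and 3 each for Ang II in Tg and in WT (0.32 and 0.34), with Col8a1 at 1.12 ± 0.19 in Tg over WT in saline (adjusted p = 8.53e-06). None of these 3 lists held a gene that fell. None of the 5 other fibrillar collagen genes passed the filter on low values.

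The small proteoglycans and glycoproteins on fibrils rose in 10 of 14 in Tg over WT in saline (median 0.58), with biglycan, Bgn, at 1.11 ± 0.14 (adjusted p = 1.07e-08). Under Ang II, 6 of 14 rose and 1 fell in Tg over WT (0.29). Ang II itself lowered 4 of 14 and raised 0 in Tg (−0.02), among them Thbs2 at −0.69 ± 0.10 (adjusted p = 3.94e-05) and Dpt, dermatopontin, at −0.46 ± 0.10 (adjusted p = 0.00223). In WT Ang II raised 5 and lowered 2 (0.13), with fibromodulin, Fmod, at 2.27 ± 0.41 (adjusted p = 9.04e-05). Genes of collagen breakdown, which include proteases and their inhibitors, rose in 10 of 12 for Tg over WT in saline (0.50) and in 6 of 12, with 1 lower, under Ang II (0.34). The inhibitor Timp1 rose by 2.06 ± 0.26 in saline (adjusted p = 2.91e-08). For Ang II over saline, 1 of 12 fell in Tg (0.12) and 4 rose in WT (0.17).

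The enzymes and chaperones of collagen hydroxylation and folding were mixed. In Tg over WT in saline 7 of 19 rose and 4 fell (median 0.06), with the prolyl 3-hydroxylase P3h2 at 1.80 ± 0.16 (adjusted p = 5.51e-12) and the chaperone Fkbp10 at −0.52 ± 0.08 (adjusted p = 1.05e-06). Under Ang II 5 rose and 2 fell (0.07), and Ang II raised 1 in Tg (0.06), Sparc, and 7 in WT with 2 lower (0.13). Genes of secretion and procollagen cleavage gave 5 higher and 2 lower of 11 for Tg over WT in saline (0.08), with the cleavage enhancer Pcolce at 0.73 ± 0.08 (adjusted p = 2.71e-09), 4 and 2 under Ang II (0.11), 0 for Ang II in Tg (0.03) and 3 higher in WT (0.0033). Of 6 collagen receptors, 2 rose and 2 fell for Tg over WT in saline (0.05), with Ddr1 at 0.63 ± 0.08 (adjusted p = 4.81e-08). The counts were 1 and 1 under Ang II (0.12), 1 and 0 for Ang II in Tg (0.04) and 2 and 1 in WT (0.12).

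LARP6 and its reported protein partners, 8 genes with Larp6 among them, rose in 4 for Tg over WT in saline (median 0.10). Under Ang II 5 rose in Tg over WT (0.14). Ang II over saline raised 0 in Tg (0.05), and raised 3 and lowered 1 in WT (0.07). Larp6 itself was 1 of these 3, at 1.23 ± 0.40 (adjusted p = 0.0235, edgeR). The WT Ang II group includes library 329, labelled WT but with 1001 scaled FPKM of Larp6. Without libraries 329 and 847, mean Larp6 was 38.2 scaled FPKM in WT Ang II and 33.3 in WT saline. Vimentin, Vim, an intermediate filament protein reported to stabilise type I collagen mRNA with LARP6, rose by 0.54 ± 0.10 in saline (adjusted p = 1.68e-05). Transcription factors known to act on the type I genes gave 6 of 26 higher and 6 lower for Tg over WT in saline (−0.03), shares near those of all genes, 7 and 5 under Ang II (0.02), 1 and 2 for Ang II in Tg (0.04) and 3 and 4 in WT (−0.04). Scleraxis, Scx, was the called factor with the smallest p in saline, at 1.41 ± 0.16 (adjusted p = 1.06e-09), and Ang II raised it in WT by 1.04 ± 0.15 (adjusted p = 3.81e-06).

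Markers of the cells that could make these mRNAs moved as well, and in a bulk sample more cells of a type and more RNA per cell cannot be told apart. Tested markers of resident fibroblasts were higher in 8 of 12 and lower in 1 of 12 for Tg over WT in saline (median 0.43), and their summed level was 354 to 633 scaled FPKM in Tg Ang II, 526 to 714 in Tg saline, 333 to 502 in WT Ang II and 421 to 527 in WT saline. In that contrast myofibroblast markers rose in 7 of 8 tested, of 10 in the list (median 1.49), with sums of 85.3 to 201 in Tg Ang II, 80.0 to 253 in Tg saline, 43.5 to 155 in WT Ang II and 33.5 to 76.6 in WT saline. Of 9 macrophage markers 7 of 8 tested rose (median 0.72), with sums of 107 to 226 in Tg Ang II, 137 to 393 in Tg saline, 74.8 to 213 in WT Ang II and 91.3 to 117 in WT saline. All 8 endothelial markers fell, with sums of 99.9 to 151 in Tg Ang II, 96.8 to 134 in Tg saline, 117 to 205 in WT Ang II and 136 to 208 in WT saline. Of 6 markers of ventricular muscle 4 fell, and of 9 tested pericyte and smooth muscle markers 2 rose and 6 fell. For Tg over WT under Ang II, markers were higher in 5 of 12 and lower in 0 for fibroblasts (median 0.23), and higher in 5 of 8 for myofibroblasts (0.79). They were higher in 5 of 8 for macrophages (0.34) and lower in 8 of 8 for endothelium (−0.38). They were higher in 1 and lower in 5 of 6 for ventricular muscle (−0.30), and higher in 2 and lower in 5 of 9 for pericytes and smooth muscle (−0.24). Relative to saline, Ang II raised 1 and lowered 6 of the 12 fibroblast markers in Tg, and raised 2 and lowered 4 in WT. For Ang II over saline, myofibroblast markers rose in 5 of 8 in Tg (median 0.84) and in 6 of 8 in WT (1.69), endothelial markers fell in 0 of 8 in Tg and 1 of 8 in WT, and macrophage markers rose in 0 of 8 in Tg and 1 of 8 in WT. Schwann, atrial, and valve or epicardial markers, none of which passed the filter, summed to at most 3.85 scaled FPKM in any library. No marker of the 9 lists was at 0 in every library, and 5 of the 12 fibroblast markers, 1 of the 10 myofibroblast markers and 1 of the 9 macrophage markers also stand in the lists of collagen genes above. Their part in the collagen results was not tested.

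Set against the mean log2 level of the 12 fibroblast markers of the same library, the log2 difference of Tg over WT in saline was 0.44 for Col1a1, 0.37 for Col1a2, 0.47 for Col3a1, 0.27 for Col5a2, −0.0074 for Col5a1 and −0.65 for Col5a3, where the differences of the levels themselves were 0.88, 0.80, 0.90, 0.70, 0.43 and −0.22. Under Ang II, Tg over WT was 0.31 against the markers and 0.57 without for Col1a1, 0.28 and 0.54 for Col1a2 and 0.44 and 0.69 for Col3a1. It was 0.19 and 0.45 for Col5a1 and 0.35 and 0.60 for Col5a2. For Ang II over saline in WT the values stayed close, with 0.86 for Col1a1 against 0.85 without the markers and 0.72 for Col5a2 in both. In Tg, where Ang II lowered 6 of the 12 fibroblast markers and raised 1, they were larger against the markers, at 0.73 for Col1a1 and 0.80 for Col5a2, than without, at 0.55 and 0.62.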

How the data were processed

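Poly(A) RNA of left ventricles was sequenced as paired ends from dUTP libraries, per the labels' protocols. Tools named in the submitters' processing notes are HISAT2 2.0.4, StringTie 1.3.4d, cutadapt 1.9 and FastQC. The authors deposited a raw count and an FPKM value per gene and library in 1 table; the counting tool, its strand setting and the genome build are not given in the sources used here. The deposited FPKM divides by the joined exons of a gene. Gene positions in the table equal GENCODE M21 on GRCm38 for all 6 members. All other steps were done here.

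Counts were tested with edgeR 4.0.16 in R 4.3.3 (quasi-likelihood, median-of-ratios scaling, 8 means for genotype, treatment and sex, sexes weighted equally), for genes that reached 1 FPKM in 5 or more libraries. Calls are at a Benjamini-Hochberg adjusted p under 0.05. Alternatives used limma 3.58.1, DESeq2 1.42.0, other scalings and filters, each sex alone, and fits without each library. Ratios of FPKM were taken with nothing added, and 0.1 was added to each chain only as an alternative. Levels are the deposited FPKM over factors of its own. The fits were tested on simulated data. Members, lists and tests were chosen with earlier results of these data known. In each list and contrast the genes with the smallest p could be named, up to 3.

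Each library number occurs once and is taken as 1 mouse, so p measures the spread between these libraries, which may in part be technical. Pairs of libraries within a group differed by a chi-square of 21.2 or more per gene, so no pair was alike within counting error. Counting intervals cover counting error only.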

Additional observations from a re-analysis of the deposited data

Results flagged for a closer look

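The effect of Ang II on the ratio of type V to type I chains differed between the genotypes, which is why it is named here. The log2 ratio under Ang II against saline was −0.14 in Tg and −0.51 in WT, and the difference between these effects, Tg minus WT, was 0.37 by permutation of residuals within sex (adjusted p = 0.0036 over 36 ratio tests). In males alone it was 0.42 (adjusted p = 0.0343, permutation) and in females alone 0.31, which did not pass (adjusted p = 0.209, permutation); in females alone the 6 ratio results called over both sexes did not pass either. In the same libraries the summed resident fibroblast markers had medians of 511 in Tg Ang II, 611 in Tg saline, 417 in WT Ang II and 452 scaled FPKM in WT saline, and their part in this difference was not tested.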

How the results depend on the processing

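No paired analysis was possible because every library number occurs once. A block for 10 runs of nearby library numbers was tried instead, with a new run after a gap of more than 20. The 5 members called for Tg over WT in saline held in each fit without 1 library. Such fits called 3 to 5 members for Tg over WT under Ang II (3 without library 715), 1 to 5 for Ang II in Tg (5 without library 162; 4 without 297, 530 or 779; 1 without 237, 299, 528, 715 or 716) and 4 to 5 for Ang II in WT. Ang II in Tg had 1 called member with library size alone as scaling and with no filter. In females alone, 0 were called for Tg over WT under Ang II, 0 for Ang II in Tg and 3 for Ang II in WT; in males alone 2 for Tg over WT in saline and 1 for Ang II in WT. In females alone 0 chain ratios passed for Tg over WT in saline, Ang II in either genotype or the interaction; without libraries 329 and 847, 1 passed for Tg over WT under Ang II. The cause was not tested; each sex alone has fewer samples.

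Scaling by library size alone moved the median of all genes by 0.14 for Tg over WT in saline and the calls to 4868 higher and 919 lower, against 2376 and 2344. It moved the calls to 3372 and 927 for Tg over WT under Ang II, against 1905 and 1909. They were 1987 and 477 for Ang II in WT, against 1129 and 1031. They moved to 2985 and 897 for Tg saline over WT Ang II, against 1801 and 1800, and to 1111 and 112 for female over male, against 216 and 298. Of the members called, only Col1a1 for Ang II in Tg lost its call (adjusted p = 0.0511).

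Values that were not called changed sign as follows, in log2. They include the interactions of Col1a2 (−0.32), Col3a1 (−0.30), Col5a2 (−0.14) and Col5a3 (0.21). Library size alone: female over male Col1a1 0.04, Col3a1 0.00798, Col5a1 0.041, Col5a2 0.033, and Tg saline over WT Ang II Col1a1 0.0046. No filter: that contrast for Col5a3 −0.0024. Interaction of Col5a1: 0.0084 with FPKM of at least 5, 0.027 and 0.021 by limma-trend with pseudocounts 1 and 0.1, which gave 0.0199 and 0.026 for Col1a1 in Tg saline over WT Ang II. Without libraries 329 and 847: Col5a3 in that contrast −0.041, female over male Col3a1/Col1a2 0.011 and Col5a1/Col5a2 −0.0089. Block: Col5a3 for Ang II in Tg 0.021, interaction of Col5a1 0.084 and Col5a2 0.027, Col5a3 female over male −0.14 and Tg saline over WT Ang II −0.022. Females alone: interaction of Col5a3 −0.054, Col1a1 in Tg saline over WT Ang II 0.074, Col3a1/Col1a1 −0.013 for Ang II in Tg, 0.044 in WT and −0.057 for the interaction, and Col3a1/Col1a2 interaction −0.062. Males alone: Col5a3 for Ang II in Tg 0.21, interactions of Col1a2 0.034, Col3a1 0.21, Col5a1 0.31 and Col5a2 0.29, Tg saline over WT Ang II of Col1a2 −0.0058, Col3a1 −0.17 and Col5a3 −0.22, and Col3a1/Col1a1 for Tg over WT in saline −0.081. Arntl and Per2 as covariates: female over male Col1a1 0.063, Col3a1 0.076, Col5a1 0.016, Col5a2 0.026, and Tg saline over WT Ang II Col3a1 −0.0301 and Col5a3 −0.076. Larp6 without the 2 farthest libraries: r of −0.25, −0.40, −0.17, −0.27 and −0.24 with Col1a1, Col1a2, Col3a1, Col5a1 and Col5a2 in Tg Ang II, and −0.21 and −0.15 with Col1a1 and Col5a1 in Tg saline.

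Without 1 library in turn, Tg saline over WT Ang II ran from −0.14 to 0.069 for Col1a1, −0.17 to 0.15 for Col3a1, −0.17 to 0.032 for Col5a2 and −0.093 to 0.084 for Col5a3. Female over male ran from −0.076 to 0.034 for Col1a1, −0.14 to 0.013 for Col3a1, −0.056 to 0.024 for Col5a1, −0.083 to 0.027 for Col5a2 and −0.055 to 0.085 for Col5a3. The interaction of Col5a1 ran from −0.075 to 0.084, and Col5a3 from −0.15 to 0.027 for Ang II in Tg and from −0.14 to 0.018 for Tg over WT under Ang II. At 571 counts or more per member and library, the spread between libraries, which may in part be technical, and not counting error limits these values.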
